A study of Mus musculus with 6 samples.

Results

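The genes described here encode the machinery of MHC class II antigen presentation, measured in the hearts of mice that lack Cfp1 in cardiomyocytes and of WT mice. They are 7 of the 26881 genes in the deposited expression table, taken by gene symbol: H2-Aa, H2-Ab1, H2-Eb1, Cd74, H2-DMa, H2-DMb1 and Ciita. The genes were chosen by their FPKM in these same libraries, with the difference between Cfp1-cKO and WT hearts already known, so the levels of its genes in Cfp1-cKO and WT hearts are given as a description, without a test. All 7 genes were above every WT library in every Cfp1-cKO library, as were 33.1% of all 26881 genes. Their mean levels in Cfp1-cKO hearts were 13.4 to 62.1 times the WT mean.

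RNA-seq gave 3 libraries from Cfp1-cKO hearts and 3 from WT hearts, of mice at 2 weeks of age. Cfp1-cKO mice (Myh6-Cre: Cfp1 flox/flox, genotype CXXC1 null in the labels) lose Cfp1, the product of Cxxc1 and a subunit of the complexes that methylate histone H3 at lysine 4, through a Cre that the Myh6 promoter drives in cardiomyocytes. The WT mice were on the same C57BL/6 background. The paper names littermates as controls for growth at a later age, and for the RNA-seq only WT controls. Whether the WT mice carried the floxed allele or the Cre is not said in the sources used here. The Cre acts in cardiomyocytes, whereas the RNA came from the heart as a whole, with every cell type in it. Whether a library holds 1 heart or several is not stated, so the p-values speak only to the spread among these samples.

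MHC class II molecules present peptides from proteins that a cell has taken up to CD4 T cells. Their alpha and beta chains are assembled on the invariant chain, Cd74, which blocks the groove until cathepsins have degraded it, and H2-DM then exchanges the last piece of it for a peptide. Transcription of the genes of the chains, of Cd74 and of H2-DM depends on CIITA, a coactivator with no DNA binding of its own. CIITA docks on the RFX, CREB and NF-Y factors bound at the X and Y boxes of the promoters. Dendritic cells, B cells and many macrophages express class II constitutively, as do type II cells of the lung alveolus and the epithelium of the thymus. Many other cells gain it after interferon gamma has induced CIITA.

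In the files, which use GRCm38, 5 of the genes lie in the MHC on chromosome 17. H2-DMa runs from 34135182 to 34139101, H2-DMb1 from 34153072 to 34160230, H2-Ab1 from 34263209 to 34269418 and H2-Eb1 from 34305877 to 34316199, all on the plus strand. H2-Aa, from 34282744 to 34287827, lies on the minus strand.

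The promoters of H2-Aa, H2-Eb1 and H2-DMb1 are shown because they carry the paired X and Y boxes through which CIITA acts, next to those of H2-Oa, H2-Ob and H2-Eb2, class II genes of the same region that are described further on. The sequences are those of RefSeq (GRCm38.p6), 5′ to 3′ on the strand of the gene, each cut from a window that runs from 250 bases before to 50 bases after the transcription start. Capitals mark the X box string CNNGNAAC and the Y box string TGATTGG, which were written down after these promoters had been read.
H2-Aa, chr17:34287862-34287915, minus strand: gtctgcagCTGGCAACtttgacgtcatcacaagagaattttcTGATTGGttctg
H2-Eb1, chr17:34305765-34305817, plus strand: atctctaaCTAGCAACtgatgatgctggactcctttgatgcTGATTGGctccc
H2-DMb1, chr17:34153086-34153139, plus strand: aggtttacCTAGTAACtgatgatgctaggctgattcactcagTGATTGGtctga
H2-Oa, chr17:34092292-34092345, plus strand: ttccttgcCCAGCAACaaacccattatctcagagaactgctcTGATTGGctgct
H2-Ob, chr17:34238807-34238857, plus strand: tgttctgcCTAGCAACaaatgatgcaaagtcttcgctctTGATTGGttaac
H2-Eb2, chr17:34325532-34325584, plus strand: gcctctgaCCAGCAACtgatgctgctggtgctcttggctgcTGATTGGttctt

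The X box string read CTAGCAAC in H2-Eb1 and H2-Ob and CCAGCAAC in H2-Oa and H2-Eb2. Between the strings lay 26 bases in H2-Aa, H2-DMb1 and H2-Oa, 25 in H2-Eb1 and H2-Eb2 and 23 in H2-Ob. In H2-Aa the X box string began 84 bases before the transcription start, in H2-Eb1 94, in H2-DMb1 97 and in H2-Eb2 135 bases before it. Over 32851 RefSeq promoter windows of the same length, searched on both strands, 39.1% held the X box string and 7.82% the Y box string, which did not overlap each other in the promoters shown. A pair on 1 strand with 15 to 35 bases between them was found in 52 windows, or 0.158%. H2-DMb2 held both strings at a wider spacing. The 2 windows of H2-DMa, which start at 34122582 and 34125268 and so lie well before the gene as the files place it, held no pair. By contrast, the H2-DMb1 stretch and the H2-DMb2 window lie inside their genes as the files place them. The H2-Oa stretch reaches the first bases of its gene there. H2-Ab1, Cd74, Ciita and H2-Ea-ps are named only. A match is a description of the letters and shows no binding.

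**Figure D1:**
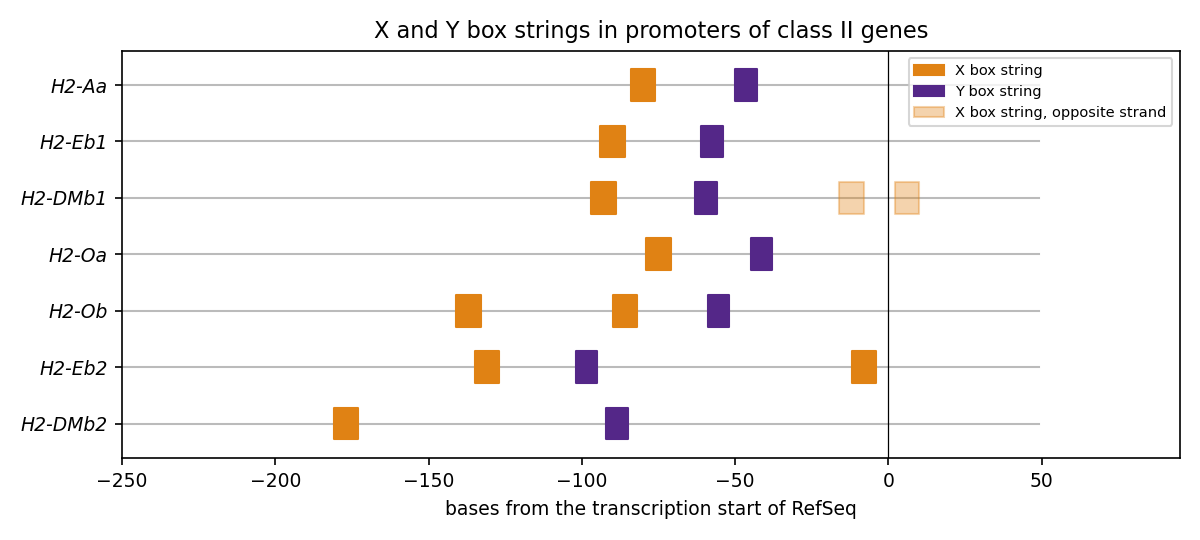
Positions of the X box string (orange) and the Y box string (purple) in the promoter windows of 7 class II genes, in bases from the transcription start of RefSeq, with matches on the opposite strand in pale orange. In the 6 genes above H2-DMb2 a Y box string follows an X box string after 23 to 26 bases.

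The authors deposited FPKM values, which scale the fragments of a gene to its length and to the total of the library. Library totals worked back from these values were 19481847, 16672652 and 18014630 fragments in Cfp1-cKO hearts and 22700811, 18847891 and 18007474 in WT hearts, so that 1 fragment in a gene of 2 kilobases was worth 0.0220 to 0.0300 FPKM. Limma on log2(FPKM + 1) called 2325 of the 11017 genes that averaged 1 FPKM or more higher in Cfp1-cKO hearts (21.1%) and 185 lower (1.68%). A call required a Benjamini-Hochberg adjusted p under 0.05 together with a log2 fold change beyond 0.5 in either direction. The median of all tested genes was itself shifted by 0.35 on the log2 scale, and after median-of-ratios scaling, which removes that shift, 3.74% were called higher and 3.25% lower. These counts depended on single libraries, with 588 genes called in all without Cfp1-cKO replicate 2, 680 without WT replicate 1 and 1086 without Cfp1-cKO replicate 3, against 2510 with all libraries. Cxxc1 itself measured 8.02, 9.94 and 8.74 FPKM in Cfp1-cKO hearts, against 9.66, 12.9 and 10.03 FPKM in WT hearts, and these values, which sum over every exon and cell type, do not measure the deletion. Cardiomyocyte markers summed to between 5543 and 8242 FPKM in Cfp1-cKO and between 7190 and 13346 FPKM in WT libraries, as the label heart implies. The Cfp1-cKO libraries also held lung epithelial transcripts, whose marker sums were 3209 to 4872 FPKM, against 0.788 to 3.04 FPKM in WT libraries.

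The chains that form the class II molecules were high in every Cfp1-cKO heart. H2-Aa, the alpha chain of I-A, had 25.0, 29.0 and 32.1 FPKM in Cfp1-cKO hearts, against 0.870, 0.793 and 1.27 FPKM in WT hearts. H2-Ab1, the beta chain that pairs with it, had 19.7, 27.7 and 31.1 FPKM in Cfp1-cKO hearts, against 0.323, 0.551 and 0.441 FPKM in WT hearts. H2-Eb1, the beta chain of I-E, had 24.8, 26.5 and 32.3 FPKM in Cfp1-cKO hearts, against 0.744, 0.538 and 2.30 FPKM in WT hearts. The alpha chain that would pair with it, H2-Ea, is inactive in C57BL/6 mice and stands in the annotation as the pseudogene H2-Ea-ps. The lowest Cfp1-cKO library exceeded the highest WT library 19.6-fold for H2-Aa, 35.7-fold for H2-Ab1 and 10.8-fold for H2-Eb1, the smaller margin of H2-Eb1 resting on WT replicate 3.

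Behind these levels stood 911, 907 and 1083 fragments of H2-Aa in the Cfp1-cKO libraries and 37, 28 and 43 in the WT libraries. For H2-Ab1 the fragments numbered 627, 755 and 917 in Cfp1-cKO libraries, against 12, 17 and 13 in WT libraries. H2-Eb1 had 573, 523 and 690 fragments in Cfp1-cKO libraries, against 20, 12 and 49 fragments in WT libraries. WT hearts thus held class II transcripts at a low but countable level. H2-Aa averaged 28.7 ± 3.58 FPKM in Cfp1-cKO and 0.979 ± 0.259 FPKM in WT hearts (SD, n = 3 each), 29.3 times as much. The mean of H2-Ab1, 26.1 ± 5.87 FPKM in Cfp1-cKO hearts and 0.438 ± 0.114 FPKM in WT hearts (SD, n = 3 each), differed 59.6-fold. H2-Eb1 averaged 27.9 ± 3.95 FPKM in Cfp1-cKO hearts and 1.19 ± 0.962 FPKM in WT hearts (SD, n = 3 each), a difference of 23.4-fold.

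Cd74, the invariant chain (chromosome 18, 60803848 to 60812646, plus strand), was the most abundant of the 7 transcripts. It had 64.0, 102 and 122 FPKM in Cfp1-cKO hearts (1758, 2392 and 3098 fragments), against 1.34, 1.24 and 2.05 FPKM in WT hearts (43, 33 and 52 fragments). Its mean of 95.9 ± 29.4 FPKM in Cfp1-cKO hearts was 62.1 times the 1.54 ± 0.439 FPKM of WT hearts (SD, n = 3 each). Among the 7 genes it had the widest spread between Cfp1-cKO hearts in proportion to its level, with replicate 3 at 1.91 times replicate 1.

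The genes of H2-DM, the peptide editor, were at lower levels in both genotypes. H2-DMa, its alpha chain, had 2.69, 3.29 and 4.26 FPKM in Cfp1-cKO hearts, against 0.134, 0.259 and 0.372 FPKM in WT hearts. H2-DMb1, a beta chain, had 4.04, 4.93 and 6.54 FPKM in Cfp1-cKO hearts, against 0.267, 0.357 and 0.262 FPKM in WT hearts. Every Cfp1-cKO library lay above every WT library, by a factor of at least 7.23 for H2-DMa and 11.3 for H2-DMb1. The WT values rest on few reads, 5, 8 and 11 fragments of H2-DMa and 9, 10 and 7 of H2-DMb1, where the Cfp1-cKO libraries had 86, 90 and 126 and 117, 122 and 175. The means were 3.41 ± 0.793 FPKM in Cfp1-cKO and 0.255 ± 0.119 FPKM in WT hearts for H2-DMa (SD, n = 3 each), a ratio of 13.4. For H2-DMb1 they were 5.17 ± 1.27 FPKM in Cfp1-cKO and 0.295 ± 0.0537 FPKM in WT hearts (SD, n = 3 each), a ratio of 17.5. H2-DMb1 lies beside H2-DMb2, a close copy, and fragments may have been assigned to either.

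Ciita, the coactivator (chromosome 16, 10488178 to 10527564, plus strand), was the scarcest of the 7. It had 0.459, 0.582 and 0.771 FPKM in Cfp1-cKO hearts (47, 51 and 73 fragments), against 0.00838, 0.0202 and 0.0528 FPKM in WT hearts (1, 2 and 5 fragments). All Cfp1-cKO hearts lay above all WT hearts, yet its mean over the 6 libraries did not reach 1 FPKM, so it did not enter the fit. Summed over libraries, 171 fragments in Cfp1-cKO hearts stood against 8 in WT hearts, so that the WT level is known only roughly.

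**Figure D2:**
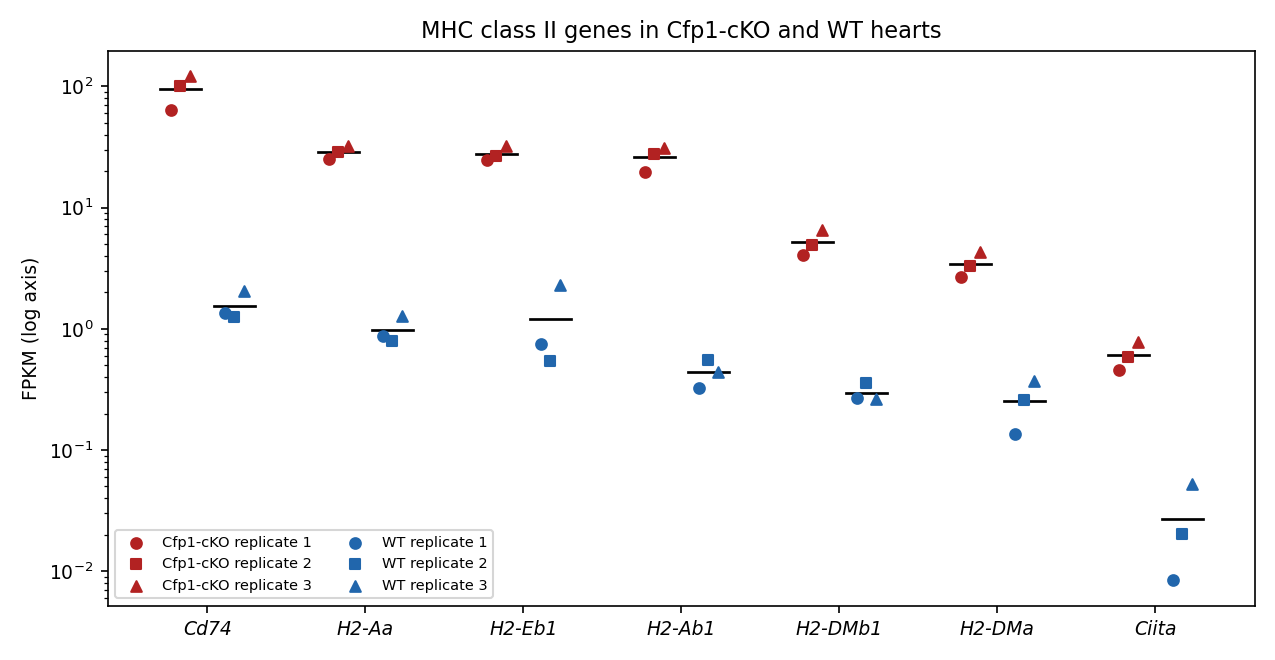
FPKM of the 7 class II genes on a log axis, with 1 symbol per library, Cfp1-cKO in red to the left and WT in blue, and a black line at each mean of 3 libraries. For each of the 7 genes every Cfp1-cKO library lies above every WT library, as for 33.1% of all genes. The means run from Cd74, 95.9 FPKM in Cfp1-cKO and 1.54 FPKM in WT hearts, to Ciita, 0.604 FPKM in Cfp1-cKO and 0.0271 FPKM in WT hearts.

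On the scale of the fit, log2(FPKM + 1), which compresses the differences of low genes, the Cfp1-cKO minus WT difference was 5.22 for Cd74 (standard error 0.25), 4.22 for H2-Ab1 (0.19), 3.91 for H2-Aa (0.17) and 3.80 for H2-Eb1 (0.28). It was 2.23 for H2-DMb1 (0.18) and 1.80 for H2-DMa (0.19). The median over all 7 genes, Ciita included with its difference of 0.64, was 3.80, beside 0.35 over all genes tested. After median-of-ratios scaling the 7 genes had a median of 3.47. Of the 6 genes in the fit, H2-Aa, H2-Ab1, H2-DMa and H2-DMb1 averaged below 1 FPKM in WT hearts and passed the filter only through their Cfp1-cKO libraries. All 6 met the call rule, which 21.1% of tested genes met in this direction, and all 7 had every Cfp1-cKO library above every WT library, as did 33.1% of all 26881 genes and 46.4% of the tested ones. Nothing is read from these counts, since the same contrast led to the choice of the genes. In bulk RNA, a higher level in the cells that express a gene and a larger number of such cells cannot be told apart, and since the Cfp1-cKO libraries also held lung epithelial transcripts, these values need not be of heart cells alone. Whether the class II transcripts came from cells of the heart or of the lung was not tested.

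In Cfp1-cKO hearts the order of the mean levels was Cd74, then H2-Aa, H2-Eb1 and H2-Ab1, which did not differ beyond their spread, then H2-DMb1 and H2-DMa, whose ranges met between 4.04 and 4.26 FPKM, and last Ciita. WT hearts had the same genes at both ends. There Cd74, H2-Eb1 and H2-Aa overlapped one another, H2-Ab1 overlapped H2-Eb1, H2-DMb1 and H2-DMa, and the pair of DM genes overlapped each other. Ratios taken inside each library show how closely the genes kept together. H2-DMa was 0.665, 0.668 and 0.652 of H2-DMb1 in Cfp1-cKO hearts, against 0.503, 0.724 and 1.42 in WT hearts, where each ratio rests on at most 11 fragments of either gene. H2-Eb1 was 0.996, 0.913 and 1.01 of H2-Aa in Cfp1-cKO hearts, against 0.856, 0.678 and 1.80 in WT hearts. Both ratios overlapped between the genotypes and were tighter among the Cfp1-cKO libraries, which also had more fragments.

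Other ratios did not overlap. Cd74 was 2.57, 3.51 and 3.80 times H2-Aa in Cfp1-cKO hearts, against 1.55, 1.57 and 1.61 times in WT hearts. H2-Ab1 was 0.788, 0.953 and 0.969 of H2-Aa in Cfp1-cKO hearts, against 0.371, 0.695 and 0.346 in WT hearts. H2-DMb1 was 0.162, 0.170 and 0.204 of H2-Aa in Cfp1-cKO hearts, against 0.307, 0.451 and 0.205 in WT hearts, the nearest libraries differing only in the third digit. Relative to H2-Aa, the Cfp1-cKO hearts thus held more Cd74 transcript. No difference is read for H2-Ab1, whose WT ratios rest on 12, 17 and 13 of its fragments and reached 0.695, against 0.788 in the lowest Cfp1-cKO library. The same holds for H2-DMb1, whose WT ratios rest on 9, 10 and 7 fragments and nearly met those of Cfp1-cKO hearts.

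Among the Cfp1-cKO hearts themselves, replicate 1 was the lowest and replicate 3 the highest for all 7 genes. The same order was seen in 33.1% of tested genes. After median-of-ratios scaling it held for 6 of the 7, all but H2-Eb1, and for 19.0% of tested genes, while replicate 3 was the highest for all 7 and for 35.4% of tested genes. Marker lists were mixed in this respect. The order of the class II genes was seen in 8 of 11 lung epithelial markers, 4 of 13 macrophage markers, 2 of 9 dendritic cell markers and 0 of 10 B cell and plasma cell markers, and in 0 of 11 class I genes.

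Sftpc, surfactant protein C of alveolar type II cells, had 1202, 2163 and 3232 FPKM in Cfp1-cKO replicates 1, 2 and 3, and did not exceed 0.330 FPKM in any WT library. Scgb1a1, a secretory protein of airway club cells from the same list, was instead highest in replicate 1, with 2904, 405 and 671 FPKM in Cfp1-cKO hearts, against no more than 1.45 FPKM in WT hearts. Of the lung list, Cyp2f2 and Scgb3a2, named after their values were seen, also had replicate 1 highest. Itgax, the integrin CD11c of dendritic cells and alveolar macrophages, was at 0.695, 1.85 and 2.12 FPKM in Cfp1-cKO replicates 1, 2 and 3, against 0.0550, 0.0442 and 0.0231 FPKM in WT hearts. Among B cell genes, Cd79a was highest in replicate 1, with 1.09, 0.535 and 0.419 FPKM in Cfp1-cKO hearts, against 0.0605, 0.0364 and 0.191 FPKM in WT hearts, whereas Cd79b, Blk and Ms4a1 were highest in replicate 2 and Mzb1 in replicate 3. H2-K1, a class I heavy chain, had 106, 66.7 and 65.0 FPKM in Cfp1-cKO hearts, against 26.5, 52.7 and 52.8 FPKM in WT hearts. Of the class I genes, 10 of 11 were highest in Cfp1-cKO replicate 1.

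**Figure D3:**
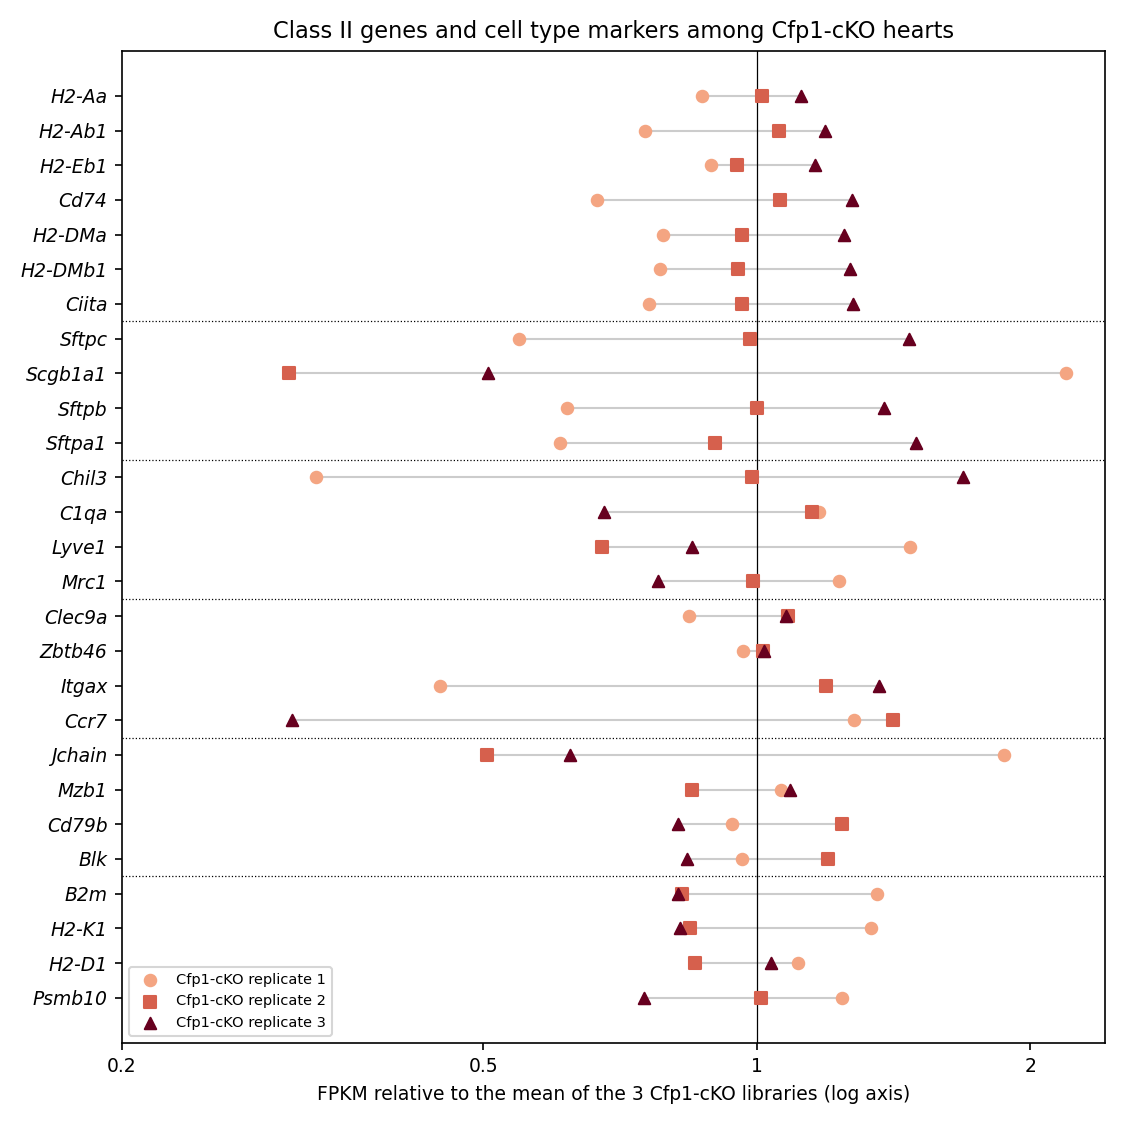
FPKM of each Cfp1-cKO library relative to the mean of the 3 Cfp1-cKO libraries, on a log axis, for the 7 class II genes and, below them and set apart by dotted lines, the 4 most abundant genes each of the lung epithelial, macrophage, dendritic cell, B cell and class I lists. Replicate 1 (circles) is the lowest and replicate 3 (triangles) the highest for the 7 genes and for Sftpc, Sftpb, Sftpa1, Chil3, Itgax and, by a narrow margin, Zbtb46. Replicate 1 is the highest for Scgb1a1, C1qa, Lyve1, Mrc1, Jchain and the 4 class I genes.

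Minor class II genes make up part of the list of antigen processing and peptide loading. H2-DMb2, the other DM beta chain, had 0.540, 0.982 and 1.66 FPKM in Cfp1-cKO hearts, against 0.0773, 0 and 0.0325 FPKM in WT hearts. Its 97 fragments in Cfp1-cKO libraries stood against 4 in WT libraries, a rate ratio of 26.7 (exact 95% interval 10.1 to 99.8). H2-Ob, the beta chain of H2-DO, which restrains H2-DM and is known chiefly from B cells, had 0.586, 0.361 and 0.211 FPKM in Cfp1-cKO hearts, against 0.0838, 0.0168 and 0.123 FPKM in WT hearts. With 67 against 14 fragments its rate ratio was 5.26 (exact 95% interval 2.93 to 10.1). H2-Oa, the alpha chain of H2-DO, and H2-Eb2 were listed at 0 in all WT libraries. In Cfp1-cKO hearts H2-Oa was at 0.117, 0 and 0.0422 FPKM and H2-Eb2 at 0.163, 0.0815 and 0.0754 FPKM. H2-Oa, H2-Ob and H2-Eb2, whose promoters hold the X and Y box strings in the spacing of H2-Aa and H2-Eb1 or close to it, were thus below 1 FPKM in the Cfp1-cKO hearts in which H2-Aa and H2-Eb1 reached 24.8 FPKM or more.

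H2-Ea-ps was listed at 2.104 FPKM in Cfp1-cKO replicate 3 and at 1.48 FPKM in WT replicate 1 and at 0 in the other libraries.

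The list as a whole had 15 of its 16 genes in the table, of which 9 were tested and 4 were called higher and 0 lower, beside 21.1% called higher over all genes tested. Ctss, the cathepsin that degrades the invariant chain in antigen-presenting cells, rose by 1.39 on the log2 scale (standard error 0.24, adjusted p = 0.0107 by limma), with 26.2, 40.5 and 40.4 FPKM in Cfp1-cKO hearts and 13.4, 16.5 and 9.28 FPKM in WT hearts. Ifi30, the lysosomal thiol reductase GILT, rose by 1.15 (adjusted p = 0.00669 from limma), and Ctsh, an aminopeptidase-like cathepsin also known from alveolar type II cells, by 1.27 (adjusted p = 0.0119 from limma). Ctsb rose by 0.50 (adjusted p = 0.0450 from limma), with 87.4, 96.0 and 104 FPKM in Cfp1-cKO and 64.1, 62.4 and 75.8 FPKM in WT hearts. Ctsd, Ctsl, Lgmn, Sppl2a and March8 were not called, with log2 fold changes from -0.10 (Ctsl) to 0.44 (March8). Sppl2a, the protease that clears the membrane stub of the invariant chain, had 0.31 (adjusted p = 0.157 from limma).

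The median of the 9 tested genes was 0.44, beside 0.35 over all genes tested, and 11 of the 15 genes were higher in every Cfp1-cKO library than in every WT library, beside 33.1% of all genes in the deposited data. After median-of-ratios scaling, with which 3.74% of tested genes were called higher, only Ifi30 of the list was (adjusted p = 0.0421 from limma), with Ctss at adjusted p = 0.0606 and Ctsh at adjusted p = 0.0657. Ctsh was not called without Cfp1-cKO replicate 2 (adjusted p = 0.0503 from limma). Ctsb was not called without any single library other than WT replicate 3, with adjusted p of 0.0600, 0.137 and 0.121 without Cfp1-cKO replicates 1, 2 and 3 and 0.145 and 0.0879 without WT replicates 1 and 2. The count of calls was 2 without Cfp1-cKO replicate 2. The largest of these log2 fold changes, 1.39, lay below the 1.80 to 5.22 of the 6 class II genes in the fit.

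The list of the factors that bind the X and Y boxes and of the route from interferon gamma to Ciita had 18 genes. Of these 13 were tested and 2 were called higher and 0 lower, a share near the 21.1% over all genes tested, with a median of 0.27, beside 0.35 over all genes tested, and 8 of the 18 did not overlap, beside 33.1% of all genes. Nfya, the regulatory subunit of NF-Y, rose by 0.64 (adjusted p = 0.0272 from limma), with 3.19, 4.29 and 3.27 FPKM in Cfp1-cKO and 1.97, 1.77 and 2.03 FPKM in WT hearts. Spi1, the factor PU.1 of myeloid and B cells, rose by 0.79 (adjusted p = 0.0251 from limma), with 1.41, 1.76 and 2.00 FPKM in Cfp1-cKO and 0.654, 0.295 and 0.804 FPKM in WT hearts. Neither was called after median-of-ratios scaling (adjusted p = 0.192 for Nfya and 0.0930 for Spi1, from limma). Without Cfp1-cKO replicate 2 adjusted p was 0.110 for Nfya and 0.0841 for Spi1, without Cfp1-cKO replicate 3 it was 0.0596 and 0.0723, and without WT replicate 1 it was 0.0837 and 0.0735. Without WT replicate 2 it was 0.0508 for Nfya.

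Rfx5, a subunit of RFX, was below the filter with 0.822, 1.43 and 1.10 FPKM in Cfp1-cKO hearts, against 0.593, 0.309 and 0.445 FPKM in WT hearts. Its partners Rfxap and Rfxank had log2 fold changes of 0.09 (adjusted p = 0.694 from limma) and 0.18 (adjusted p = 0.453 from limma). Of the interferon route, Ifng was listed at 0 in all libraries but Cfp1-cKO replicate 2, which had 2 fragments. Irf1, which interferon gamma induces and which acts at a Ciita promoter, had 6.15, 5.49 and 5.04 FPKM in Cfp1-cKO hearts, against 4.68, 2.60 and 3.74 FPKM in WT hearts (limma log2 fold change 0.51, adjusted p = 0.0812). Ifngr1 and Ifngr2, the receptor chains, had 0.27 and 0.26, and Jak1 and Jak2, its kinases, 0.31 and 0.13, below the median shift of all genes.

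MHC class I, which presents peptides from inside the cell to CD8 T cells and shares the interferon route, is given for comparison. Of 11 genes 9 were tested and 2 were called higher and 0 lower, a share near the 21.1% over all genes tested. Their median was 0.57, beside 0.35 over all genes tested, and 10 of the 11 did not overlap, beside 33.1% of all genes. H2-D1, a class I heavy chain, rose by 1.04 (adjusted p = 0.00679 from limma), with 86.3, 66.4 and 80.6 FPKM in Cfp1-cKO and 32.4, 38.9 and 40.3 FPKM in WT hearts. Psmb10, an immunoproteasome subunit, rose by 1.31 (adjusted p = 0.0119 from limma). Neither was called after median-of-ratios scaling (adjusted p = 0.105 and 0.0853, from limma), and without WT replicate 3 the count was 4. B2m, the light chain, had 651, 398 and 393 FPKM in Cfp1-cKO hearts, against 392, 325 and 269 FPKM in WT hearts (limma log2 fold change 0.52, adjusted p = 0.125). Nlrc5, the class I counterpart of Ciita, had 0.955, 0.452 and 0.444 FPKM in Cfp1-cKO hearts, against 0.420, 0.106 and 0.595 FPKM in WT hearts, which overlapped. Inside a library H2-Aa was 0.236, 0.435 and 0.493 of H2-K1 in Cfp1-cKO hearts, against 0.0328, 0.0150 and 0.0241 in WT hearts. H2-Aa was chosen by this same contrast, so the ratio is a description of H2-Aa and H2-K1 alone.

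On the side of costimulation and of the CD4 T cell, 3 of 13 genes were tested, 1 was called higher and 0 lower, beside 21.1% called higher over all genes tested, and 9 of the 13 did not overlap, beside 33.1% of all genes. The gene called was Cd274, the inhibitory ligand PD-L1, which rose by 0.76 (adjusted p = 0.0244 from limma), with 1.37, 1.49 and 1.81 FPKM in Cfp1-cKO and 0.280, 0.513 and 0.751 FPKM in WT hearts. It was not called after median-of-ratios scaling (adjusted p = 0.0946 from limma), nor without Cfp1-cKO replicate 2 (0.0738), Cfp1-cKO replicate 3 (0.0708) or WT replicate 1 (0.0950). Cd86, a costimulatory ligand of antigen-presenting cells, overlapped, with 1.86, 1.18 and 0.849 FPKM in Cfp1-cKO and 0.830, 0.362 and 0.956 FPKM in WT hearts (limma log2 fold change 0.41, adjusted p = 0.183). Cd4, the coreceptor that reads class II, had 0.191, 0.298 and 0.289 FPKM in Cfp1-cKO hearts, against 0.0656, 0.0658 and 0.152 FPKM in WT hearts.

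Markers of the cells known to carry class II moved with the 7 genes to different degrees, and their part in the class II levels was not tested. Of these lists the lung epithelial markers had the largest median, with 11 of 11 called higher, also after median-of-ratios scaling, at a log2 fold change of 6.05. Macrophage markers had 9 of 13 tested, 5 called higher and 0 lower, beside 21.1% called higher over all genes tested, with a median of 0.87. Their summed level was 101 to 151 FPKM in Cfp1-cKO and 47.3 to 56.0 FPKM in WT libraries. Of this sum Chil3 alone made up 15.5, 46.9 and 80.0 FPKM in Cfp1-cKO replicates 1, 2 and 3. The 5 were Chil3, Ear2, Cd68, Mrc1 and Csf1r, of which Ear2, Cd68 and Csf1r are named because they were called, and after scaling, with which 3.74% of all tested genes were called higher, Chil3, Ear2 and Cd68 remained. Chil3, a chitinase-like protein of alveolar macrophages, had 15.5, 46.9 and 80.0 FPKM in Cfp1-cKO hearts, against 0.324, 3.41 and 0.136 FPKM in WT hearts (limma log2 fold change 4.41, adjusted p = 0.00533). Siglecf, which marks alveolar macrophages and eosinophils, was below the filter with 0.0920, 0.408 and 0.657 FPKM in Cfp1-cKO hearts, against 0.0316, 0 and 0.0199 FPKM in WT hearts.

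The macrophage markers Mrc1, Adgre1 and Lyve1, which were not used to tell macrophages of heart and lung apart, had differences of less than 1 on the log2 scale. Mrc1 had 11.3, 9.12 and 7.17 FPKM in Cfp1-cKO hearts, against 4.72, 2.97 and 6.40 FPKM in WT hearts (limma log2 fold change 0.87, adjusted p = 0.0412). That call was lost without any single library other than WT replicate 3, with adjusted p of 0.0967, 0.122 and 0.0586 without Cfp1-cKO replicates 1, 2 and 3 and 0.0968 and 0.0753 without WT replicates 1 and 2. Adgre1, the F4/80 antigen, was not called (limma log2 fold change 0.89, adjusted p = 0.0642). Lyve1, which also marks lymphatic endothelium, had 15.9, 7.27 and 9.13 FPKM in Cfp1-cKO hearts, against 12.6, 26.6 and 17.1 FPKM in WT hearts (limma log2 fold change -0.75, adjusted p = 0.108). The count of macrophage markers called was 2 without Cfp1-cKO replicate 2 and 3 without any one of Cfp1-cKO replicates 1 and 3 and WT replicates 1 and 2.

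Of 9 dendritic cell markers 2 were tested and 0 were called higher or lower by limma or by its voom variant, with 0 at an unadjusted p below 0.05. Without the filter all 9 were tested, and 7, all of them higher, had an unadjusted p below 0.05 from limma. Of the 9 markers 8 did not overlap, beside 33.1% of all genes. The summed level of the 9 was 6.15 to 7.95 FPKM in Cfp1-cKO and 3.16 to 4.29 FPKM in WT libraries. Zbtb46, a factor of classical dendritic cells that endothelium also expresses, had 1.95, 2.06 and 2.06 FPKM in Cfp1-cKO hearts, against 1.502, 1.40 and 1.68 FPKM in WT hearts (limma log2 fold change 0.26, adjusted p = 0.193). Itgax had 396 fragments in Cfp1-cKO and 12 in WT libraries, a rate ratio of 36.3 (exact 95% interval 20.5 to 70.8). Flt3, the receptor that dendritic cell precursors need, had 26 fragments in Cfp1-cKO and 4 in WT libraries, a rate ratio of 7.15 (exact 95% interval 2.48 to 28.2).

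B cell and plasma cell markers summed to between 10.1 and 24.4 FPKM in Cfp1-cKO and between 0.721 and 1.69 FPKM in WT libraries, with 7 of 10 not overlapping, beside 33.1% of all genes. The 1 gene tested, Jchain, the joining chain of secreted antibodies, made up the largest part of the Cfp1-cKO sum. It rose by 3.27 (adjusted p = 0.00233 from limma), reaching 19.4, 5.22 and 6.44 FPKM in Cfp1-cKO hearts, against 0.0175, 0.0211 and 0 FPKM in WT hearts. Cd79a had 55 fragments in Cfp1-cKO and 8 in WT libraries, a rate ratio of 7.56 (exact 95% interval 3.58 to 18.4). Of 11 thymus markers 7 were in the deposited data and 0 reached the filter, and 3 of the 7 did not overlap, beside 33.1% of all genes. Their summed level was 0.779 to 0.938 FPKM in Cfp1-cKO and 0.336 to 0.367 FPKM in WT libraries. Most of it was Ccl25, a chemokine of thymus and gut, with 0.365, 0.596 and 0.373 FPKM in Cfp1-cKO hearts, against 0.290, 0.257 and 0.321 FPKM in WT hearts. Rag1, a recombinase of developing lymphocytes, had 1 fragment in Cfp1-cKO replicate 2 and 1 in WT replicate 3.

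**Figure D4:**
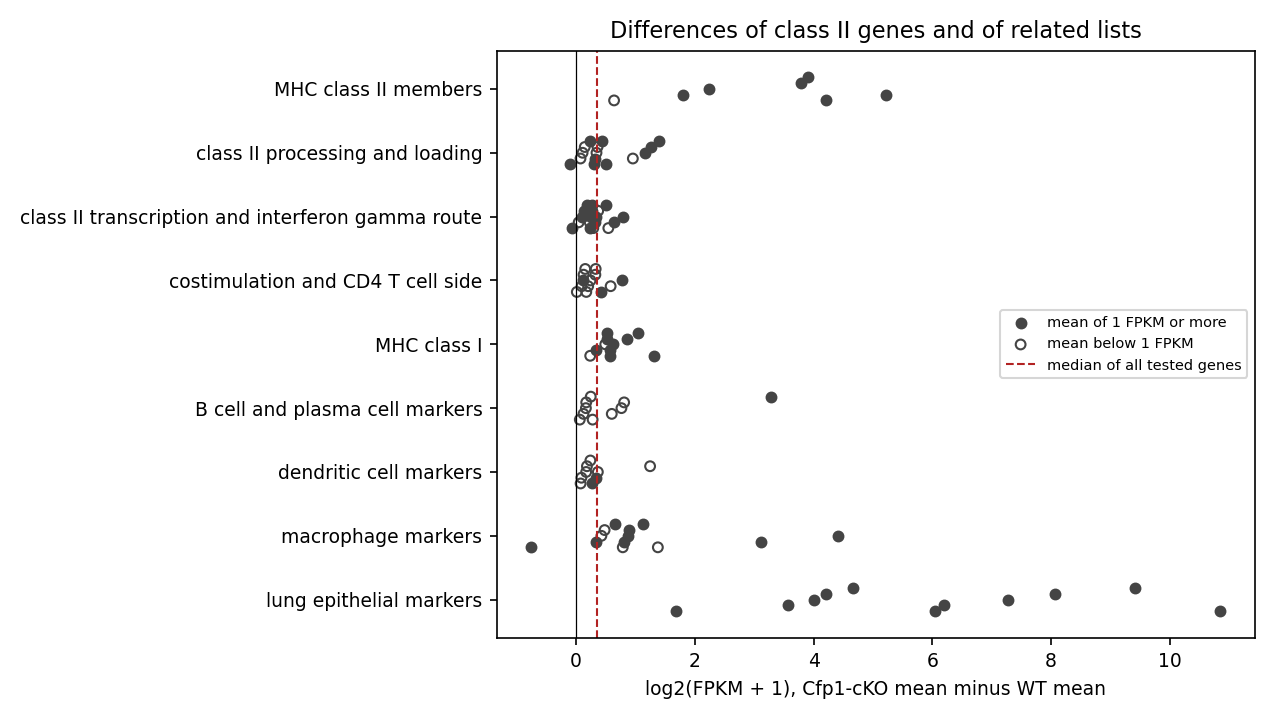
Cfp1-cKO minus WT difference of the mean log2(FPKM + 1) for each gene of the class II group and of 8 related lists, with filled circles for genes tested, open circles for genes below a mean of 1 FPKM, and a dashed red line at the median of all tested genes, 0.35. The class II genes lie between 0.64 and 5.22 and the lung epithelial markers between 1.68 and 10.85, while most genes of antigen processing, transcription, costimulation and class I lie between 0 and 1.

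The genes whose profile over the 6 libraries lay nearest to the mean profile of the class II genes that passed the filter were sought by Euclidean distance on centred log2(FPKM + 1). The 10 nearest were Gm43085 (0.356), Cldn18 (0.423), Napsa (0.442), Dct (0.532), Krt8 (0.564), S100g (0.577), Aqp5 (0.666), Scd1 (0.690), Chia1 (0.713) and Lgi3 (0.714). The class II genes themselves lay at 0.492 (H2-Aa) to 2.12 (H2-DMa) from that mean. Napsa, the aspartic protease napsin A of alveolar type II cells, had 7.33, 11.5 and 16.9 FPKM in Cfp1-cKO hearts, against 0.0166, 0.0199 and 0.0626 FPKM in WT hearts. Cldn18, a claudin of alveolar and gastric epithelium, had 7.07, 9.13 and 14.7 FPKM in Cfp1-cKO hearts, while it was listed at 0 in all WT hearts. Aqp5, the water channel of alveolar type I cells, had 8.81, 14.4 and 21.4 FPKM in Cfp1-cKO hearts, against at most 0.0333 FPKM in WT hearts. Not all of the 10 are known from alveolar cells, and the genes other than Napsa, Cldn18 and Aqp5 were not sorted by cell type. In 8 of the 10 the Cfp1-cKO libraries had the order of the class II genes, but that order was part of the profile by which the 10 were picked. The order did not hold for Dct and Chia1. Dct, an enzyme of melanin synthesis, had 26.3, 30.1 and 29.4 FPKM in Cfp1-cKO hearts, against 0.779, 1.64 and 2.24 FPKM in WT hearts. Chia1, an acidic chitinase, had 11.7, 7.56 and 10.8 FPKM in Cfp1-cKO hearts, against at most 0.0231 FPKM in WT hearts. Likeness of profile over 6 libraries of 2 genotypes is dominated by the difference between the genotypes, which many genes share.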

How the data were processed

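RNA-seq of 6 heart libraries was used as the authors deposited it, as FPKM per gene in 2 tables whose values were identical for all 26881 genes. The processing notes of the submitters list CASAVA, TopHat2, HTSeq 0.6.0, DESeq2, HISAT2 2.1.0 and Bowtie2 2.2.3 and the build GRCm38, in no stated order. The paper gives a chicken genome address for the reference, and the extraction text in the labels mentions retinas, neither of which could be related to these mouse hearts.

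FPKM were whole multiples of 1 fragment in all libraries, within a tolerance of 0.02, for 98.7% of genes, with gene lengths of GENCODE mouse release M21 or another whole length for 2553 genes. Fragments were taken from these steps. Intervals cover counting error only.

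Genotypes were compared in R 4.3.3 by limma 3.58.1, its prior variance following the mean, on log2(FPKM + 1) of the 11017 genes that averaged 1 FPKM or more, with Benjamini-Hochberg adjustment over all of them. This scale compresses differences of low genes. The fit was also tested on simulated data. The 7 genes and the 10 lists were chosen with earlier results of these data known. Text names came from the class II, processing and transcription lists, the 4 most abundant and the defining genes of other lists, Cxxc1 and the 10 nearest profiles, some of which are not reported here. Alternatives covered the pseudocount (0.1), the filter, median-of-ratios scaling, a replicate block, a log2 fold threshold of 1 and each library left out. Voom of limma on recovered fragments was chosen after seeing the data. Sequences are from RefSeq (GRCm38.p6). Tables and plots were made in Python 3.11.15 (pandas 2.3.3, matplotlib 3.10.9, scipy 1.17.1, numpy 2.4.6).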

Additional observations from a re-analysis of the deposited data

How the results depend on the processing

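The direction of the 7 class II genes, which their choice fixes, is no measure of stability. Of 69 alternative values of their fold changes, 17 moved by more than the spread between replicates, and their median of 3.80 was 3.47 after median-of-ratios scaling and 4.67 with a pseudocount of 0.1. Of 2510 genes called, 2325 higher and 185 lower, the counts were 1609, 1518 and 91 without the filter, 770, 412 and 358 after scaling, and 743, 666 and 77 at a log2 fold threshold of 1. With 1 library left out they ranged from 588 to 2789, from 538 to 2588 and from 50 to 201.

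Calls among processing and loading genes numbered 1 after scaling and 2 to 4 with a library left out. Those of the transcription list numbered 0 without the filter, after scaling and at the threshold of 1, and 0 to 2 with a library left out, and the costimulation list had 0 in the same 3 settings and 0 to 1 with a library left out. Class I had 0 after scaling, 5 with voom and 2 to 4 with a library left out. B cell markers had 3 and dendritic cell markers 1 without the filter. Macrophage markers had 3 after scaling and at the threshold of 1, and 2 to 5 with a library left out. After scaling, unadjusted p from limma was below 0.05 for 3 genes of transcription, 2 of them higher, and for 1 higher gene of costimulation and 2 higher genes of class I. Of 672 alternative values of other named genes, 623 kept their status as called or not called, 48 lost a call and 1 gained one. Where the gene was called in the main or the alternative fit, 0 values reversed direction. Sign changes of genes called in neither fit were not counted as reversals. Ctsd, for example, went from 0.23 to -0.21 after median-of-ratios scaling.

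Same-numbered libraries of the 2 genotypes had correlations of their deviations of 0.108, 0.0361 and 0.104, so the numbers were not taken to pair them, although all 6 libraries were most like their own number. With the replicate block 1749 genes were called, 1 of the transcription list and 3 macrophage markers among them. Few fragments in WT hearts limit every ratio of H2-DMa, H2-DMb1 and Ciita.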
